A study of Mus musculus with 9 samples.

Results

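Ppp1r1a, Aass, Gal3st2, Gstm6, Prol1, Ccr6 and Mgl2 were 7 genes that stood among the most raised in the cochlea of mice homozygous for a humanized nonsense allele of MPZL2. They were selected on their measured values in homozygous against WT libraries, so that comparison is given here as a description, with no test on them. All 7 were listed among the 1410 gene symbols of the first deposited table and among the 25579 of the second. All 7 also had at least 1 TPM in at least 3 libraries of each table, the filter for testing, which left 1348 genes of the first table and 17102 genes of the second. In the first table Gstm6, Prol1, Ccr6, Mgl2 and Gal3st2 passed it through their homozygous libraries, having fewer than 3 WT libraries at that level. TPM is a transcript abundance scaled by transcript length and by the library total.

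The groups were taken from the sample titles, and every mouse was sampled at postnatal day 28. Treated mice carried hMPZL2Q74X/Q74X and had received AAV-ie-ABE8eWQ-SpRY:sgRNA3 at postnatal day 2. That agent packs an adenine base editor and its guide RNA in an adeno-associated viral vector, and it was given through the round window membrane, a thin membrane between the middle ear and the cochlea. Homozygous mice carried the same pair of humanized alleles, and the labels name no injection or control vector for them. The third group was labelled Mpzl2 WT. Each group had 3 libraries of total RNA from the membranous labyrinth, the soft tissue inside the bony cochlea. Neither the promoter driving the editor nor any pooling of tissue is stated in the labels. The genotype field counts upward from sample to sample within a group and was not used.

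The 7 genes have separate roles. Ppp1r1a encodes inhibitor-1, which blocks protein phosphatase 1 once protein kinase A has phosphorylated it, and so lengthens the life of cAMP-driven phosphorylation. Aass encodes the mitochondrial enzyme that takes lysine through the first steps of its breakdown. Gal3st2 encodes a Golgi enzyme that adds sulfate to galactose on glycans, and Gstm6 a mu-class glutathione S-transferase, one of the enzymes that couple glutathione to reactive compounds. Prol1, for which RefSeq gives the synonym Muc10, encodes a proline-rich mucin-like protein secreted by salivary and lacrimal glands. Ccr6 encodes the receptor for the chemokine CCL20, carried by B cells, some T cells and some dendritic cells. Mgl2 encodes CD301b, a lectin of dermal dendritic cells and of macrophages in their alternatively activated state.

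The libraries differ in ways the labels do not show. Treated libraries 1 and 2 were almost identical: over 3360 genes at 1 to 5 TPM their log2 ratio had a robust SD of 0.0728, against 1.83 for each of them with treated library 3 and 0.864 to 1.09 for pairs of homozygous libraries. Whether they are separate samples or 1 library under both labels, and whether that library is the labelled sample, cannot be told from the files. They were averaged and counted as 1 sample, so the treated group had n = 2, and values with and without treated library 3 are given. A fit without treated library 3, or with it alone, had 1 treated sample, so its calls rest on no spread between treated samples. Camk2a, a gene of forebrain neurons, had 745, 722 and 8.13 TPM in the treated libraries, against 0.471, 0.503 and 0.554 TPM in the homozygous ones, and Neurod6 had 6.25 and 6.0 TPM in treated libraries 1 and 2 and was listed at 0 in the other 4. Defining genes of the labelled tissue were present: Otos, Coch, Kcne1, Dct, Myo7a and Gjb2 were above 0 in every library of the second table. Otos was lower, at 808, 780 and 1095 TPM in treated and 3476, 3126 and 2384 TPM in homozygous libraries (log2 difference -1.665, limma adjusted p = 0.0346). That call was lost when any 1 homozygous library was left out. Coch was also lower in every treated library (limma adjusted p = 0.165). Kcne1, Dct, Myo7a and Gjb2 overlapped between the groups. Mpzl2 itself had 16.7, 23.3 and 12.5 TPM in homozygous libraries and 33.6, 43.9 and 49.0 TPM in WT libraries, with no overlap. Its log2 fold change was -1.25 (SE 0.24, limma adjusted p = 0.0139), and the adjusted p was 0.0544 without WT library 3. How much of the mouse sequence the humanized allele replaces is not stated in the labels. Because TPM is scaled to the library total, the depth behind each value is unknown.

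Promoter sequence was available for 6 of the 7 genes, from RefSeq on GRCm38.p6, as windows from 250 bases before to 50 bases after the annotated start. The submitters' notes name GRCm39, so these coordinates are not those of the files. The 4 windows below are printed 5′ to 3′ on the strand of the gene. Aass and Mgl2 are shown because they had the most similar pattern across the libraries of the first table. Prol1 and Gal3st2 are shown because they had the lowest treated levels relative to homozygous ones. Capitals mark matches to a searched motif on either strand. The windows are chr6:23132937-23133236 on the minus strand for Aass, chr11:70130107-70130406 on the plus strand for Mgl2, chr5:88317062-88317361 on the plus strand for Prol1 and chr1:93861094-93861393 on the plus strand for Gal3st2.
Aass: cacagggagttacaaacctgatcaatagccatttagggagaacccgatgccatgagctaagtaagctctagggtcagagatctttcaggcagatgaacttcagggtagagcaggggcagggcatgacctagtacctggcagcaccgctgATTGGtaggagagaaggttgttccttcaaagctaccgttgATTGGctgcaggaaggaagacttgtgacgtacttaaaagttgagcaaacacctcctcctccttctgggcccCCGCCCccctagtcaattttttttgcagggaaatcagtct
Mgl2: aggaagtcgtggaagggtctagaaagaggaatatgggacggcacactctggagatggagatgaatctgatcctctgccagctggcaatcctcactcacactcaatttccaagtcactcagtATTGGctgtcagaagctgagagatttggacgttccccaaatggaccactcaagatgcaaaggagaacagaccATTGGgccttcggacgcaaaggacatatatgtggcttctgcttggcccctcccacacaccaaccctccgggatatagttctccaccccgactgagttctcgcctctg
Prol1: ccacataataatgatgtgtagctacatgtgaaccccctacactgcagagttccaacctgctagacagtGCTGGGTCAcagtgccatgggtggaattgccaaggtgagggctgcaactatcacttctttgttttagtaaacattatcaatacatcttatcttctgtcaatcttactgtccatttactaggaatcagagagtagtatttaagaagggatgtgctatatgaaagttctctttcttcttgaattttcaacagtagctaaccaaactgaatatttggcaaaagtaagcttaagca
Gal3st2: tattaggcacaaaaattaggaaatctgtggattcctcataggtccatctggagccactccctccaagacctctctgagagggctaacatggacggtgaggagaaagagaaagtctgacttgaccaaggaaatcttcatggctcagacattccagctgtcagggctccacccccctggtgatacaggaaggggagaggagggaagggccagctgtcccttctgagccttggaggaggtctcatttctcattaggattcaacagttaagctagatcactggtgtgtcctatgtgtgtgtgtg

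The capitals in the Aass and Mgl2 windows are reversed CCAAT boxes, 2 in each window, and Aass has a reversed GC box besides. The CCAAT motif (CCAAT) was in at least 1 window of Aass, Mgl2 and Gstm6 and in 37.4% of all 32851 windows, and the GC box (GGGCGG) was in the Aass window and in 35.7% of all windows. The capitals in the Prol1 window match TGACNNNGC, a short form of the antioxidant response element that 12.4% of all windows hold. No searched motif was in the Gal3st2 window. The other 5 motifs searched on both strands were in no window of the 6 genes: TATAAA (13.6% of all windows), the cAMP response element TGACGTCA (1.79%), the AP-1 site TGANTCA (7.81%), the PU.1 box GAGGAAGT (3.20%) and the E-box CACGTG (7.15%). No matches overlapped. The Prol1 window had 39% G and C, the Aass and Gal3st2 windows 50.3% each and the Mgl2 window 52%, beside a median of 52.7% over all windows. A match is a run of letters and no measurement of binding. The 7 genes lie on 7 different chromosomes, namely 15, 6, 1, 3, 5, 17 and 11 in the order in which they are named at the start, and Mpzl2 lies on chromosome 9.

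For each of the 7 genes the lowest homozygous library lay above the highest WT library, as it did for 424 of the 1348 tested genes (31.5%). In the limma fit, 241 genes (17.9%) were higher at an adjusted p under 0.05 and 692 (51.3%) passed in either direction. The comparison chose the genes, so their count is not read against these shares. The first table holds a fraction of the genes, and no source used here says how its rows were picked. Of its tested genes, 1020 had an unadjusted limma p under 0.05, and the highest was 0.411, for Gm26822. Its shares and adjusted p-values therefore hold within this list and not over all genes. If the rows were picked on this comparison, every adjusted p-value given for it is too small. On the log2(TPM + 1) scale the median difference of the 7 genes was 1.78, beside -0.36 over all tested genes. In that order the 7 genes took ranks 7, 8, 11, 12, 15, 19 and 21. Of the 14 other genes at or above Mgl2, 9 had predicted or number-coded symbols. The remaining 5 were the histone genes H2ac19 (3.6) and H2ac23 (2.81), Klk6 (1.96), Slc4a11 (1.72) and Crygn (1.57). Histone genes have near-identical copies, so the values of that pair are uncertain. Just inside the lower end of the set stood Mgl2 at 1.51, and just outside it AI197445 at 1.46, Gm5820 at 1.44 and Nat8f5 at 1.40. The pseudocount of 1 shortens the differences of low genes: with a pseudocount of 0.1, Prol1 came to 4.22, Gal3st2 to 3.47, Gstm6 to 2.94, Mgl2 to 2.87 and Ccr6 to 2.46.

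**Figure D1:**
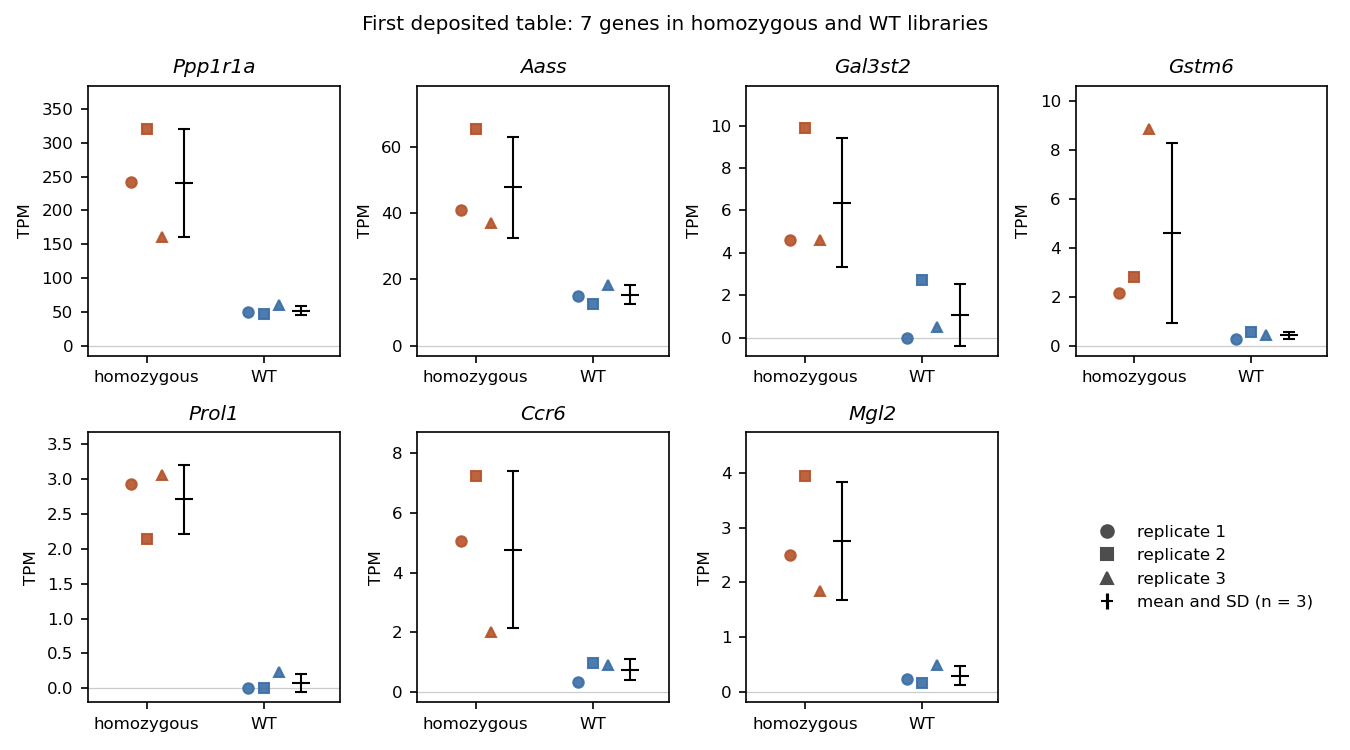
TPM of each of the 7 genes in the 3 homozygous and 3 WT libraries of the first deposited table, 1 panel a gene with its own linear axis; points are libraries and the cross with bars is the mean and SD (n = 3 each). In every panel the homozygous points lie above the WT points, from Ppp1r1a at 160.4 to 319.9 TPM in homozygous libraries down to Prol1 at 2.14 to 3.06 TPM.

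The treated libraries were not used in choosing the genes, but the homozygous libraries that they are set against were. Of the 7 genes, 0 passed the limma test of treated against homozygous libraries, beside 754 of 17102 genes (4.41%), of which 589 were higher and 165 lower. At an unadjusted p under 0.05, Gal3st2 and Prol1 were lower, as were 1354 of all genes (7.92%), and 4574 genes passed that level in either direction. Aass, Gal3st2 and Prol1 had every treated library below every homozygous library, as did 2527 of all genes (14.8%). Gal3st2 and Prol1 had fewer than 3 treated libraries at 1 TPM, so they passed the filter through their homozygous libraries. Their place in this test thus rested on the group in which they were chosen to be high. The log2 difference was below 0 for 6 of the 7 genes and for 6667 of all 17102. The median was -0.54 over the 7 genes and 0.20 over all genes. With each library scaled by the median of ratios, the median of all genes was 0.03, and Aass then had an unadjusted p of 0.0402 with a log2 difference of -0.70 (limma adjusted p = 0.173). The treated group had 2 samples, which limits the precision of each value.

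**Figure D2:**
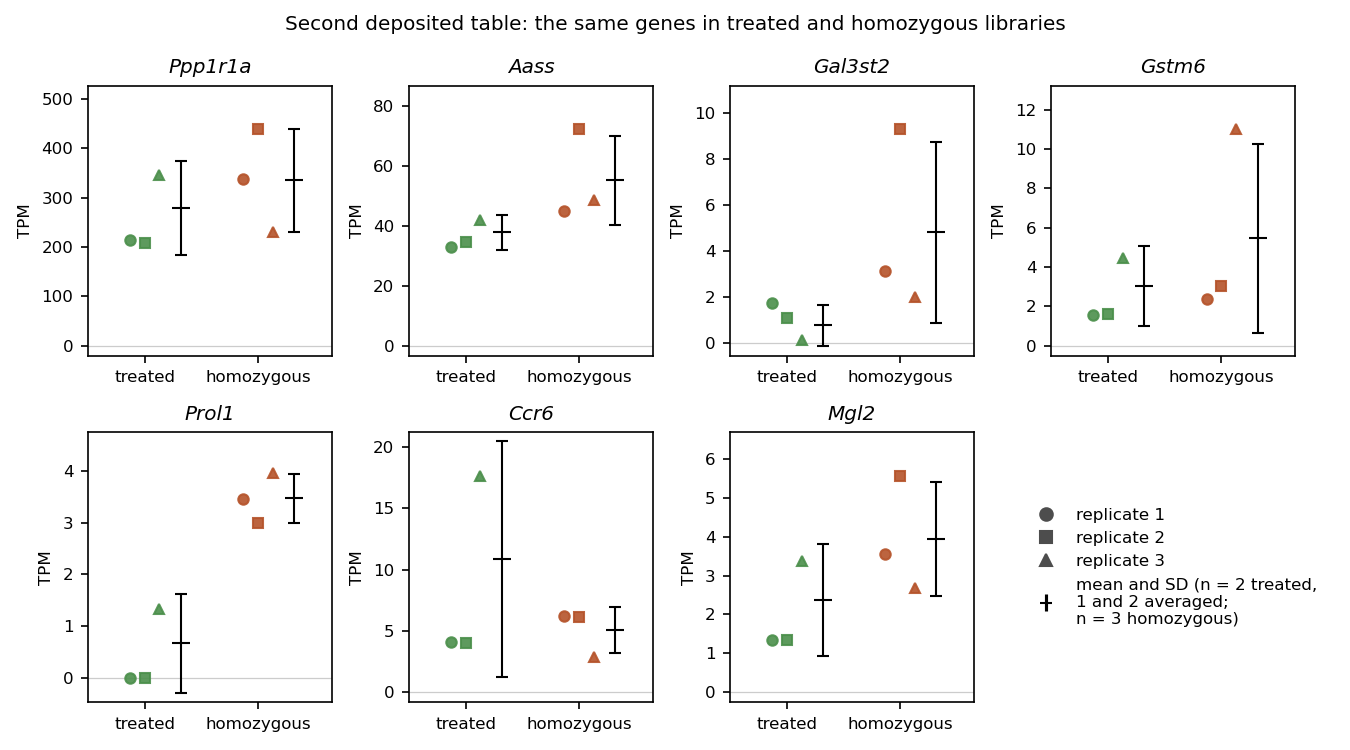
TPM of the same 7 genes in the 3 treated and 3 homozygous libraries of the second deposited table, 1 panel a gene with its own linear axis; the cross with bars is the mean and SD, with treated libraries 1 and 2 averaged (n = 2 treated, n = 3 homozygous). Aass, Gal3st2 and Prol1 show no overlap, and Ccr6 has its highest point, 17.7 TPM, in treated library 3.

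Ppp1r1a was the most abundant of the 7 genes in every library. It had 242, 319.9 and 160.4 TPM in homozygous libraries and 49.4, 46.0 and 59.7 TPM in WT libraries. All homozygous libraries were above all WT libraries, with library 2 highest. The means were 240.9 ± 79.8 TPM in homozygous and 51.7 ± 7.14 TPM in WT libraries (SD, n = 3 each), 4.66-fold higher, with a log2 difference of 2.15 (SE 0.24). The second table gave Ppp1r1a 214, 208 and 346 TPM in treated libraries, against 338, 439 and 229.8 TPM in homozygous libraries. The groups overlapped, since treated library 3 was above homozygous libraries 1 and 3. Treated over homozygous, the log2 difference was -0.26 (95% interval -1.06 to 0.54, limma adjusted p = 0.651), and it was -0.62 without treated library 3 and 0.10 with treated library 3 alone.

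None of the 18 listed genes for inhibitors and catalytic subunits of protein phosphatase 1 other than Ppp1r1a was in the first table. Of the 17 tested in the second, 0 were higher and 1 was lower in treated libraries, with a list median of -0.40. Ppp1cb, a catalytic subunit, averaged 60.3 ± 0.99 TPM in treated (n = 2) and 110.9 ± 12.3 TPM in homozygous libraries (n = 3, SD), a log2 difference of -0.86 (limma adjusted p = 0.0494). Its call was lost when any 1 homozygous library, or treated library 2, was left out. The paralog Ppp1r1b, the gene of DARPP-32, had 1099.5, 1093.5 and 2338 TPM in treated libraries and 1078, 2043 and 598 TPM in homozygous ones, which overlapped. Ppp1r1c had 9.43, 9.46 and 15.5 TPM in treated libraries, all below the 45.7, 24.5 and 61.1 TPM of homozygous libraries (log2 difference -1.68, limma adjusted p = 0.0722).

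Aass had 41.0, 65.3 and 37.1 TPM in homozygous libraries and 15.0, 12.6 and 18.3 TPM in WT libraries. The groups did not overlap, and homozygous library 2 was again the highest. The means were 47.8 ± 15.3 TPM in homozygous and 15.3 ± 2.89 TPM in WT libraries (SD, n = 3 each), 3.12-fold higher, the smallest ratio of the 7 genes, with a log2 difference of 1.55 (SE 0.24). For Aass the second table gave 32.8, 34.6 and 41.9 TPM in treated libraries and 45.0, 72.3 and 48.6 TPM in homozygous libraries. The 3 treated libraries lay below the 3 homozygous ones, with treated library 3 the nearest to them. For treated over homozygous libraries the log2 difference was -0.51 (95% interval -1.15 to 0.12, limma adjusted p = 0.267), -0.67 without treated library 3 and -0.36 with that library alone.

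Of 16 listed genes of lysine degradation, Aldh7a1 was the only one in the first table. Aldh7a1, the dehydrogenase that acts after Aass, averaged 60.5 ± 18.2 TPM in homozygous and 43.1 ± 7.14 TPM in WT libraries (SD, n = 3 each; log2 difference 0.45, limma adjusted p = 0.0968). Treated against homozygous, 0 of 14 tested genes of the list passed limma in either direction (1 at an unadjusted p under 0.05), with a median of 0.19, and Aldh7a1 averaged 92.4 ± 10.7 TPM in treated (n = 2) and 74.2 ± 25.4 TPM in homozygous libraries (n = 3).

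Gal3st2 had 4.61, 9.90 and 4.62 TPM in homozygous libraries, and in WT libraries it was listed at 0 in library 1 and had 2.73 and 0.477 TPM in libraries 2 and 3. The groups did not overlap, and homozygous library 2 was 2.15-fold above the lowest homozygous library. The log2 difference was 1.99 (SE 0.49), with the largest SE of the 7 genes. Gal3st2 levels in the second table were 1.74, 1.07 and 0.141 TPM in treated libraries, against 3.13, 9.33 and 2.00 TPM in homozygous libraries. Every treated library was below every homozygous one, and treated library 3 was the lowest, unlike for the other 6 genes. The log2 difference was -1.60 (95% interval -3.16 to -0.05, unadjusted p = 0.0449, limma adjusted p = 0.177), -1.07 without treated library 3 and -2.14 with that library alone.

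The counting of Gal3st2 is uncertain. Of its 31-base words in the GENCODE M21 transcripts, 76.5% also occur in other genes, 74% in Gal3st2b and 37.5% in Gal3st2c, which are its neighbours on chromosome 1. Gal3st2b had 0, 0.063 and 0.722 TPM in treated libraries and 0.0882, 0.413 and 0.154 TPM in homozygous libraries, and Gal3st2c had at most 0.0393 TPM in all 6. Gal3st2 also differed most between treated libraries 1 and 2, with a log2 ratio of 0.70, where Ppp1r1a, Aass, Gstm6, Ccr6 and Mgl2 lay between -0.08 and 0.04. Of 24 listed genes of carbohydrate sulfation, Chst3 was the 1 gene in the first table, at 12.3 ± 0.41 TPM in homozygous and 15.8 ± 1.48 TPM in WT libraries (SD, n = 3 each; log2 difference -0.33, limma adjusted p = 0.0879). Treated against homozygous, 0 of 20 tested genes of the list passed limma in either direction (6 at an unadjusted p under 0.05), with a median of 0.33. Slc35b2, a transporter of the sulfate donor PAPS into the Golgi, had a log2 difference of 0.97 (limma adjusted p = 0.104).

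Gstm6 had 2.17, 2.83 and 8.86 TPM in homozygous libraries and 0.281, 0.551 and 0.428 TPM in WT libraries. The groups did not overlap, but homozygous library 3 was 4.08-fold above homozygous library 1, the widest ratio within the homozygous group for the 7 genes. The means were 4.62 ± 3.69 TPM in homozygous and 0.420 ± 0.135 TPM in WT libraries (SD, n = 3 each), 11-fold higher, with a log2 difference of 1.80 (SE 0.41). After treatment Gstm6 had 1.58, 1.58 and 4.45 TPM in treated libraries, against 2.37, 3.03 and 11 TPM in homozygous libraries. The groups overlapped through treated library 3. The treated over homozygous log2 difference was -0.54 (95% interval -2.15 to 1.06, limma adjusted p = 0.638). It was -1.08 without treated library 3, -0.002 with that library alone, and 0.03 without homozygous library 3.

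Of 29 listed genes of glutathione conjugation and synthesis, 4 were tested in the first one, where 2 were higher and 0 lower, with a median of 0.74. Gstm1, another mu-class transferase, had 34.2, 32.7 and 29.3 TPM in homozygous libraries and 14.4, 16.3 and 25.5 TPM in WT libraries, without overlap (log2 difference 0.78, limma adjusted p = 0.0347). Nqo1, a quinone reductase, averaged 11.9 ± 2.33 TPM in homozygous and 6.70 ± 1.52 TPM in WT libraries (SD, n = 3 each; log2 difference 0.75, limma adjusted p = 0.0410). With 1 library left out, the call was lost in 3 of 6 fits for Gstm1 and in 5 of 6 for Nqo1. With treatment 1 of 25 tested genes was higher and 0 were lower, with a median of -0.08. Mgst1, a microsomal transferase, averaged 114 ± 9.95 TPM in treated (n = 2) and 48.3 ± 9.96 TPM in homozygous libraries (n = 3, log2 difference 1.24, limma adjusted p = 0.0386). That call was lost under median-of-ratios scaling, and when any 1 homozygous library or treated library 2 was left out. Among the Gstm paralogs, the log2 differences in treated libraries were 0.41 for Gstm1, 0.11 for Gstm2, -1.18 for Gstm4, -0.10 for Gstm5 and -0.64 for Gstm7, with limma adjusted p-values of 0.281 to 0.925. Of the 31-base words of Gstm6, 9.62% occur in other genes, most often in Gstm3 (4.52%).

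Prol1 had 2.93, 2.14 and 3.06 TPM in homozygous libraries, and in WT libraries it was listed at 0 in libraries 1 and 2 and had 0.231 TPM in library 3. The groups did not overlap, and the homozygous libraries were closer together than for any other of the 7 genes, with a ratio of highest to lowest of 1.43. The log2 difference was 1.78 (SE 0.23). After treatment Prol1 was listed at 0 in treated libraries 1 and 2 and had 1.34 TPM in treated library 3, against 3.45, 3.00 and 3.95 TPM in homozygous libraries. Every treated library was below every homozygous one. The log2 difference was -1.54 (95% interval -2.70 to -0.38, unadjusted p = 0.0167, limma adjusted p = 0.110). It was -2.15 without treated library 3 and -0.93 with that library alone, each from 1 treated sample.

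Prol1 shares none of its 31-base words with another gene. Of the 25 listed genes for products of secretory glands, 0 were in the first table. The second table listed 12, of which 3 passed the filter and 0 passed limma in either direction, also at an unadjusted p under 0.05, with a median of -0.20. The list had 7 of its 12 genes (58.3%) at 0 in both treated libraries 1 and 2, as had 4793 of all 25579 symbols (18.7%), and 3 of those 7 were under 1 TPM in every homozygous library too. Its summed level was 17.2, 16.4 and 72.6 TPM in treated libraries and 46.1, 84.0 and 37.8 TPM in homozygous libraries. Treated libraries 1 and 2 were the lowest of the 6, and treated library 3 lay between homozygous libraries 2 and 1. Amy1, an amylase, had 16.6, 15.9 and 22.3 TPM in treated libraries and 32.4, 15.0 and 21.8 TPM in homozygous libraries, which overlapped. Of all tested genes of the second table, 303 (1.77%) were listed at 0 in both treated libraries 1 and 2, and 206 of them had at least 1 TPM in every homozygous library. Of these 206 genes, 178 (86.4%) were above 0 in treated library 3, as Prol1 was.

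Ccr6 had 5.08, 7.25 and 2.01 TPM in homozygous libraries and 0.345, 0.988 and 0.905 TPM in WT libraries. The groups did not overlap, and homozygous library 3 was the lowest of its group. The means were 4.78 ± 2.64 TPM in homozygous and 0.746 ± 0.35 TPM in WT libraries (SD, n = 3 each), 6.41-fold higher, with a log2 difference of 1.63 (SE 0.38). After treatment Ccr6 had 4.08, 4.03 and 17.7 TPM in treated libraries, against 6.21, 6.09 and 2.88 TPM in homozygous libraries. The groups overlapped, with treated library 3 above and treated libraries 1 and 2 inside the homozygous range. Treated over homozygous it came to a log2 difference of 0.74 (95% interval -0.78 to 2.25, limma adjusted p = 0.495), the only one above 0 among the 7 genes. It was -0.21 without treated library 3 and 1.68 with that library alone.

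The list of CCL20 and the lymphocytes that answer to it had 16 genes. With treatment 2 of 8 tested genes were higher and 0 lower, with a median of 1.18. Both are T cell genes. Cd4 had 13.3, 13.0 and 29.0 TPM in treated libraries and 0.606, 1.63 and 1.19 TPM in homozygous libraries (log2 difference 3.29, limma adjusted p = 0.0228). Cd3e had 24.4, 23.7 and 44.5 TPM in treated libraries and 2.71 and 0.480 TPM in homozygous libraries 1 and 2, with library 3 listed at 0 (log2 difference 4.26, limma adjusted p = 0.0244). The call of Cd4 was lost when any 1 homozygous library was left out, and that of Cd3e without homozygous library 2 or 3. Ms4a1, a B cell gene, had 1.56, 2.62 and 0.0190 TPM in treated libraries and 0.586, 0.865 and 0.293 TPM in homozygous libraries, which overlapped. In bulk tissue, a change in the number of cells of a type and a change in RNA per cell cannot be told apart.

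Mgl2 had 2.49, 3.95 and 1.85 TPM in homozygous libraries and 0.240, 0.159 and 0.492 TPM in WT libraries. The groups did not overlap, and homozygous library 2 was the highest. The means were 2.76 ± 1.08 TPM in homozygous and 0.297 ± 0.174 TPM in WT libraries (SD, n = 3 each), 9.31-fold higher, with a log2 difference of 1.51 (SE 0.27). The second table gave Mgl2 1.351, 1.338 and 3.39 TPM in treated libraries, against 3.56, 5.57 and 2.69 TPM in homozygous libraries. The groups overlapped through treated library 3. Its treated over homozygous log2 difference was -0.58 (95% interval -1.72 to 0.55, limma adjusted p = 0.472), -1.03 without treated library 3 and -0.13 with that library alone.

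Of the 31-base words of Mgl2, 22.8% occur in other genes, most of them in Clec10a (19.3%), its neighbour and the gene of the related lectin CD301a. Clec10a had 0.270, 0.254 and 0.0879 TPM in treated libraries, and in homozygous libraries it was listed at 0 except for 2.79 TPM in library 2. Of 22 listed genes of CD301b dendritic cells and alternatively activated macrophages, 2 were tested homozygous against WT and 0 passed limma (2 at an unadjusted p under 0.05). Cd163, a scavenger receptor of macrophages, averaged 3.01 ± 1.31 TPM in homozygous and 1.41 ± 0.449 TPM in WT libraries, and Irf4, a transcription factor of such dendritic cells, averaged 1.29 ± 0.797 TPM in homozygous and 2.65 ± 0.672 TPM in WT libraries (SD, n = 3 each). With treatment 1 of 12 tested genes was higher and 0 were lower, with a median of 0.43. Itgax, the gene of CD11c, averaged 6.97 ± 3.27 TPM in treated (n = 2) and 0.266 ± 0.238 TPM in homozygous libraries (n = 3; log2 difference 2.61, limma adjusted p = 0.0340), a call lost when any 1 homozygous library was left out.

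The 2 genes of immune cells, Ccr6 and Mgl2, can be set beside summed marker levels in the same 6 libraries. The 14 markers of resident macrophages summed to 689.8, 671 and 728 TPM in treated libraries and 169, 244 and 189.6 TPM in homozygous libraries, without overlap, and 8 of the 14 passed limma as higher and 0 as lower. C1qc and C1qa, subunits of complement C1q, led them with log2 differences of 3.01 and 2.498. Their calls were lost without homozygous library 1, and that of C1qa also without homozygous library 3. The CCL20 and lymphocyte list summed to 98.8, 98.1 and 120.2 TPM in treated libraries and 24.6, 47.4 and 20.9 TPM in homozygous libraries. The CD301b list summed to 84.8, 80.6 and 78.7 TPM in treated libraries and 64.6, 76.0 and 65.0 TPM in homozygous libraries. All 3 sums were higher in every treated library than in every homozygous one, which neither Ccr6 nor Mgl2 was.

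**Figure D3:**
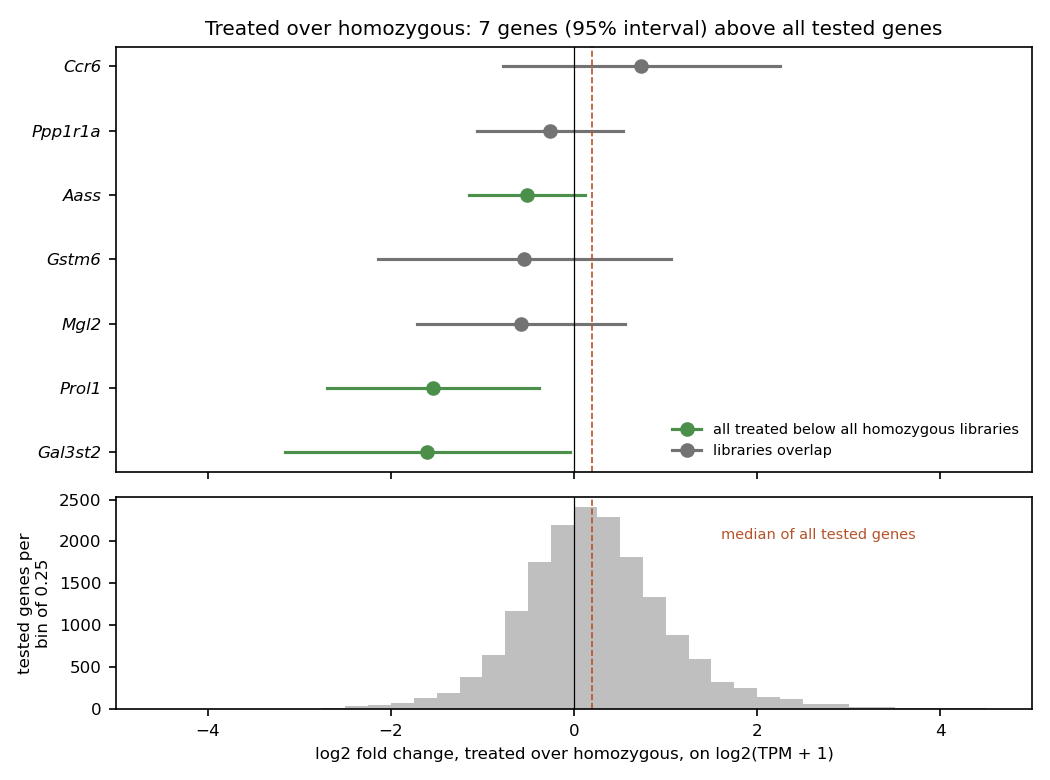
Log2 difference of treated over homozygous libraries on the log2(TPM + 1) scale for the 7 genes, with 95% intervals from limma, beside the spread of the same value over all 17102 tested genes. The points run from -1.60 for Gal3st2 to 0.74 for Ccr6; the intervals of Gal3st2 and Prol1 lie below 0 before adjustment for the number of genes.

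Homozygous library 2 was the highest of its group in the first table for 5 of them (71.4%), all but Gstm6 and Prol1, and for 142 of the 241 genes called higher (58.9%). By the second table it was the highest homozygous library for 4 of the 7 (57.1%), and for 40.5% of all tested genes. Treated library 3 was above treated libraries 1 and 2 for 6 of the 7 (85.7%), all but Gal3st2, and for 6690 of the 17102 tested genes (39.1%). Sums of strial markers from the second table can be set beside these counts. The 11 markers of marginal cells, the potassium-secreting cells of the stria vascularis, summed to 2436, 2428 and 5294 TPM in treated libraries and to 2637, 5105 and 2072 TPM in homozygous libraries. The 12 markers of intermediate cells, the pigment cells of the stria, summed to 1337, 1298 and 2741 TPM in treated libraries and to 1186, 2208 and 1001 TPM in homozygous libraries. For both lists treated library 3 and homozygous library 2 were the highest of their groups, as for Ppp1r1a, Aass and Mgl2. The same order held for sums of supporting cell, fibrocyte, root and spindle cell, bone, neutrophil and resident macrophage markers. It was therefore not particular to the stria. Supporting cell markers summed to 2939, 2855 and 4827 TPM in treated libraries and to 3005, 4968 and 3039 TPM in homozygous libraries. The hair cell, forebrain neuron, erythroid, muscle and mitochondrial sums had other orders. The part of these sums in the levels of the 7 genes was not tested.

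**Figure D4:**
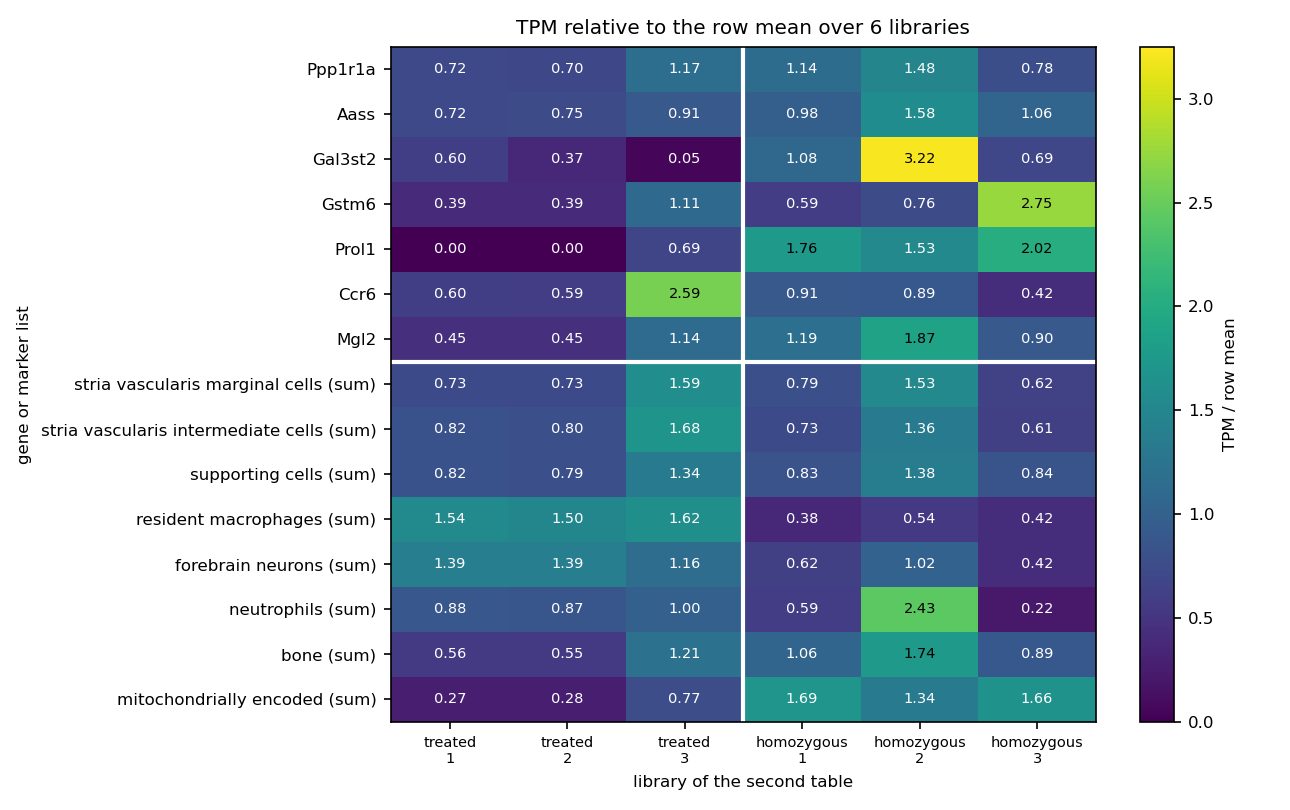
TPM of the 7 genes (upper rows) and summed TPM of marker lists (lower rows) in the 3 treated and 3 homozygous libraries of the second table, each divided by its row mean over the 6 libraries. Treated libraries 1 and 2 have the same colours in nearly every row, and homozygous library 2 is bright for Gal3st2, Mgl2, neutrophil and bone markers.

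Other marker sums moved with the groups or with single libraries. The 13 mitochondrially encoded genes summed to 21592, 22106 and 61365 TPM in treated libraries and to 135497, 106963 and 133102 TPM in homozygous libraries, without overlap. Of them, 3 passed limma as lower. The 12 bone markers summed to 2084, 2052 and 4518 TPM in treated libraries and to 3954, 6525 and 3340 TPM in homozygous libraries, and 2 passed as lower. The 12 neutrophil markers summed to 231.5, 229.9 and 263 TPM in treated libraries and to 156, 638 and 59.0 TPM in homozygous libraries, highest in homozygous library 2. The 20 forebrain neuron markers summed to 3186, 3190.0 and 2666 TPM in treated libraries and to 1424, 2352 and 977 TPM in homozygous libraries. Ppp1r1b carried much of that sum, and the other 19 summed to 2086, 2097 and 328 TPM in treated libraries and to 346, 309 and 379 TPM in homozygous libraries. Without Ppp1r1b, treated libraries 1 and 2 stood above the other 4, and treated library 3 lay within the homozygous range. Single genes of the list differed: Camk2a had 8.13 TPM in treated library 3 and at most 0.554 TPM in homozygous libraries. Neurod6 was listed at 0 in all 4. The sum alone thus does not show whether treated library 3 held forebrain RNA. Of the remaining lists in the second table, those of hair cells, erythroid cells, forebrain neurons, neutrophils and both strial cell types had 0 genes past the limma threshold (at an unadjusted p under 0.05, 6 hair cell, 1 erythroid, 8 forebrain, 2 neutrophil, 2 marginal and 3 intermediate cell genes). Higher were 2 of 11 supporting cell and 1 of 9 root and spindle cell genes. From the lists of spiral ligament fibrocytes and of skeletal muscle, 1 of 12 and 1 of 7 genes were lower. Homozygous against WT, 2 of 5 marginal cell genes were higher, as were 1 of 3 root and spindle cell genes. Of 5 fibrocyte genes 2 were higher and 2 lower, and of 5 bone genes 1 was higher and 3 lower. The first table also had 2 of 3 forebrain neuron genes and 1 of 4 supporting cell genes lower, and 0 of 4 intermediate cell genes, 0 of 1 hair cell gene and 0 of 1 muscle gene passed limma (1 of each list at an unadjusted p under 0.05). The macrophage, neutrophil, erythroid and mitochondrial lists had 0 tested genes there. The part of these lists in the levels of the 7 genes was not tested.

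Some genes of the first table had patterns close to those of the 7. Likeness was the root mean square difference in log2(TPM + 1) over the 6 libraries, each gene centred on its WT mean, and it was computed on the libraries that chose the genes, so it is a description. Among the 7 genes themselves, the nearest were Aass and Mgl2, at 0.08 from each other. The nearest of the 7 lay at 0.31 from Ccr6 (Mgl2), 0.40 from Prol1 (Mgl2), 0.44 from Ppp1r1a (Ccr6), 0.48 from Gstm6 (Prol1) and 0.58 from Gal3st2 (Ccr6). Outside the 7, the 2 nearest genes to Aass and to Mgl2 were Slc4a10, a bicarbonate transporter (0.20 for Aass and 0.19 for Mgl2), and Nxt1, a factor of RNA export (0.28 for Aass and 0.21 for Mgl2). For Ccr6 they were Ptger3, a receptor for prostaglandin E2 (0.31), and Ptgds, a prostaglandin D2 synthase (0.34). For Ppp1r1a they were Slc4a11, a membrane transporter (0.46), and Gm27232 (0.53), and for Gal3st2 5330411J11Rik (0.48) and Mucl2 (0.61). For Gstm6 they were Gm28294 (0.39) and Lrig3 (0.49), and for Prol1 Gm5820 (0.28) and Nudt8 (0.33). Slc4a11 had 316, 816 and 280.3 TPM in homozygous libraries and 137.5, 84.1 and 170.4 TPM in WT libraries, and Ptgds 8518, 10479 and 5519 TPM in homozygous and 2925, 3292 and 3903 TPM in WT libraries. Both had homozygous library 2 highest and no overlap between groups.

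Of the 28 nearest neighbours of the 7 genes, 2 on each side of every gene, 2 (7.14%) were in the first table, beside 5.43% of all symbols of the second table. They were Pde1b (log2 difference 0.63) and Mucl2 (1.33), and both flank Ppp1r1a. Of the neighbours, 18 were tested in treated against homozygous libraries and 0 passed limma, with Mpc1, beside Ccr6, having the lowest adjusted p at 0.0552.

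The same homozygous libraries had different values in the 2 tables, so levels are not carried from one to the other and tests were made only within a table. The ratio of the second to the first table had a median of 1.15, 1.15 and 1.16 over 1290 to 1296 shared genes in homozygous libraries 1, 2 and 3. Mgl2 and Ppp1r1a lay near the upper end of that spread in all 3 libraries, at 1.43, 1.41 and 1.46 for Mgl2 and 1.40, 1.37 and 1.43 for Ppp1r1a. Gal3st2 had 0.679, 0.943 and 0.431, so its values in the second table were lower, and by unequal amounts.

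**Figure D5:**
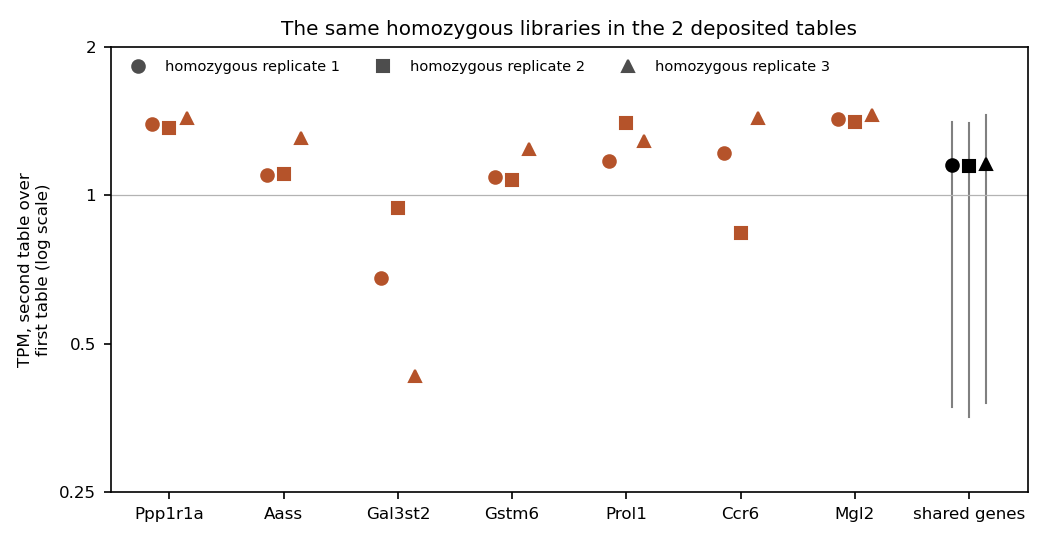
TPM in the second table divided by TPM in the first (log axis) for the same 3 homozygous libraries, for the 7 genes (brown) and, in black, the median with the 5th to 95th percentile of all genes shared by the tables. Gal3st2 lies below 1 in all 3 libraries, at 0.431 to 0.943, while the medians lie at 1.15 to 1.16.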

How the data were processed

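RNA of 9 cochlear libraries was sequenced as total RNA with a strand-marking kit, per the labels' protocols. The authors deposited TPM values. The submitters' processing notes name kallisto 0.51.0, DESeq without a version and the build GRCm39, with no roles given. Of the 2 deposited tables, the first held 1411 rows of homozygous and WT libraries, summing to 120756 to 137436 TPM, and the second 25606 rows of treated and homozygous libraries, summing to 995747 to 996703 TPM. Treated and WT libraries share no table and were not tested against each other. Repeated symbols were summed. The titles call the replicates biological, but nothing says that they came from separate animals, so p-values measure the spread between these libraries.

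Genes at 1 TPM or more in at least 3 libraries were fitted with limma 3.58.1 in R 4.3.3 on log2(TPM + 1), with a mean-variance trend, two-sided tests and Benjamini-Hochberg adjustment over all tested genes at a threshold of 0.05. Fold changes on this scale understate those of low genes. Treated libraries 1 and 2 were averaged. The script was tested on simulated data. Other tables were made with Python 3.11.15 and pandas 2.3.3. Alternatives were pseudocounts of 0.1 and 0.5, no filter, no trend, median-of-ratios scaling, a replicate block, all libraries separate, and each library left out. Treated library 3 alone was added after the values had been seen. Shared 31-base words were counted in GENCODE M21 transcripts, and promoters came from RefSeq on GRCm38.p6.

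Named were the 7 genes, close paralogs, the 3 genes ranked just below Mgl2 and the 2 genes most like each of the 7. In each of 20 gene lists, up to 2 genes a direction past the threshold with the smallest p could be named. Where none passed, these were the 2 with the highest mean. Many of these genes, mostly of the cell type lists, are counted above without being named. Other names (the genes ranked above Mgl2, marker genes, neighbours) were chosen after their values were seen. The 7 genes and the lists were chosen with earlier results of these data known. The results of 2 genes of the lists are not reported here.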

Additional observations from a re-analysis of the deposited data

How the results depend on the processing

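Treated against homozygous, 754 genes passed limma. The count was 134 with no filter on low values, 479 with no trend, 3563 with all libraries as separate samples, 222 with treated replicate 3 alone, and 63 to 2984 with 1 library left out (2984 without treated replicate 3). With the replicate number as a block it was 1485. Of the 7 genes 0 passed, and 1, Prol1, passed with all libraries as separate samples (log2 difference -1.74). Without treated replicate 3, which left 1 treated sample, Prol1 was at -2.15, and no call is read from that fit. For Prol1 the limma adjusted p was 0.0283 to 0.319 over the alternatives with more than 1 treated sample. The log2 difference of Ppp1r1a was 0.095 with treated replicate 3 alone, that of Gstm6 -1.084 to 0.025 with 1 library left out (0.025 without homozygous replicate 3), and that of Ccr6 -0.206 to 0.889 (-0.206 without treated replicate 3), with the named ones opposite in sign to the reported value. The cause was not tested. No other result of the 7 genes changed its sign in this comparison. With more than 1 treated sample, none of the 7 but Prol1 passed the threshold in any setting. Homozygous against WT, 692 genes passed, 343 with the replicate block, and 103 to 611 with 1 library left out. Under median-of-ratios scaling, 63.5% of the calls were higher in treated libraries (402 higher and 231 lower), beside 78.1%, and 68.3% were higher in homozygous than in WT libraries (465 and 216), beside 34.8%. The deviations of same-numbered libraries had correlations of -0.15 to 0.05. With 3 libraries a group, and treated libraries 1 and 2 almost identical, these values cannot show whether the numbers pair samples. Under scaling all 7 genes were above every WT library; leaving libraries out cannot make groups overlap, and these values chose the genes. TPM gives no depth, which limits what a listed 0 shows.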

Other observations

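Some other genes were, like Prol1, listed at 0 in treated libraries 1 and 2 only, and are named here after their values had been seen. Amtn, the gene of amelotin, an enamel protein, lies next to Prol1. It was listed at 0 in treated libraries 1 and 2 and had 1.04 TPM in treated library 3, against 2.12, 1.52 and 3.12 TPM in homozygous libraries (limma adjusted p = 0.186). Glycam1, which encodes a mucin-like ligand of L-selectin, lies next to Ppp1r1a. It was listed at 0 in treated libraries 1 and 2 and had 0.578 TPM in treated library 3, against 2.31, 2.21 and 2.55 TPM in homozygous libraries (log2 difference -1.42, limma adjusted p = 0.0905). Aqp5, a water channel of glands, was likewise listed at 0 in treated libraries 1 and 2, but had its highest value, 35.4 TPM, in treated library 3, against 8.84, 15.1 and 10.3 TPM in homozygous libraries (limma adjusted p = 0.667). Mucl2, on the other side of Glycam1, had 9.76, 9.51 and 7.18 TPM in homozygous libraries by the first table, and 0.736, 0.314 and 0.262 TPM for the same libraries in the second.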
